A study of Mus musculus with 9 samples.

Results

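The genes described here encode the proteins of the mitochondrial ribosome, and they were measured by RNA sequencing in sorted spermatogonia of newborn mice. Members were taken by symbol alone, as every entry of the deposited expression table whose gene name begins with Mrpl or Mrps followed by a digit. This gave 76 genes of 23813 entries, 47 named for the large subunit and 29 for the small subunit, and 0 of them stood on more than 1 entry. No measured value entered that rule, but the set was picked out with earlier results of the same libraries known, so its counts and medians are given as descriptions.

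The mitochondrial ribosome makes the few membrane proteins that are encoded in mitochondrial DNA, which are core subunits of the respiratory chain and the ATP synthase. Its ribosomal RNAs come from the mitochondrial genome, whereas its proteins are encoded in the nucleus, translated in the cytosol and imported. Some of these proteins descend from bacterial ribosomal proteins, and others were acquired by the mitochondrial ribosome and have no bacterial counterpart. Undifferentiated spermatogonia are thought to rely more on glycolysis, and mitochondrial activity is known to increase as they differentiate.

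All cells came from male pups of the LT-11B6 line, an Id4-eGfp reporter transgene on a C57BL/6 background, at postnatal day 6. Green fluorescence marks cells that express Id4, an inhibitor of DNA binding associated with spermatogonial stem cells. A group called here all ID4-EGFP+ held the sorted fluorescent cells as a whole (3 libraries). Fluorescent cells were also stained for TSPAN8, a surface tetraspanin, and the most strongly stained 1/3 gave TSPAN8-high (3 libraries) while the most weakly stained positive 1/3 gave TSPAN8-low (3 libraries). All 3 groups therefore carry the reporter and had passed the same fluorescence sort, and both TSPAN8 fractions leave out the middle of the distribution. Each population had 3 replicate preparations, per the labels. They do not tell whether libraries of the same number came from 1 preparation, or whether litters differed, so p-values speak of the spread among preparations, which may be technical. Since the samples are sorted bulk populations, fewer cells of a type and less RNA per cell cannot be told apart.

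Values are Cufflinks FPKM, fragments scaled by transcript length and by the mapped total. The annotation that gave those lengths is unknown, so levels of different genes are compared with that limit. Read totals were not among the values used, so the depth is unknown; between 10543 and 10962 entries per library reached 1 FPKM, and the lowest correlation between any 2 libraries was 0.97 across tested genes. The sort was visible in the transcripts, since the mean FPKM of Tspan8 was 34.0 ± 8.41 in the high fraction against 9.73 ± 2.71 in the low one (SD, n = 3 each). All 12 germ cell markers examined were present in every group. Between the fractions 3 of them were higher in TSPAN8-high in limma (Gfra1, Ret and Nanos2, all expressed in undifferentiated spermatogonia) and 2 lower (Kit and Stra8, of differentiating ones), and with replicate number as a block 5 and 2. Sertoli cell markers (12, of which 11 were in the table) were also detected, with summed FPKM of 188 to 389 in TSPAN8-high, 79.9 to 247 in TSPAN8-low and 103 to 216 in all ID4-EGFP+, higher in TSPAN8-high within each replicate number. Of the 6 Sertoli markers tested between the fractions 0 passed in limma (4 higher and 0 lower at an unadjusted p under 0.05), and with the block 6 rose, with a median log2 fold change of 1.71. Among all tested genes 5.56% passed between the fractions without the block, and with it 11.8% were higher and 7.34% lower. At an unadjusted p under 0.05 without the block, 13.8% of tested genes were higher and 8.19% lower. The defining Sertoli genes Sox9, Amh, Wt1 and Gata4 were under 1 FPKM in all 9 libraries, and of 7 Leydig cell markers 6 were. Summed FPKM of peritubular, endothelial and interstitial, and blood cell markers reached at most 7.95, 6.23 and 24.4 in any library, in each case in TSPAN8-high. Leydig marker sums instead peaked in TSPAN8-low, at 6.48 in replicate 3, against at most 1.44 in TSPAN8-high and 0.51 in all ID4-EGFP+. The part of these cells and of the marker changes in the results below was not tested.

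Every member had a mean level above that of the typical tested gene, though the lowest lay close to it. The lowest value of any member in any library was 10.7 FPKM, for Mrpl19, so all 76 passed the filter for testing (at least 1 FPKM in at least 3 libraries) whatever their difference between groups. All 76 means over the 9 libraries lay above 10.3 FPKM, the median of the 11142 tested genes. Large subunit genes ran from 13.1 to 884 FPKM with a median of 140, and small subunit genes from 15.4 to 1066 with a median of 118. Levels of genes whose products meet in 1 particle thus spanned 81.6-fold. Members with a bacterial counterpart (48 genes) had a median of 177 FPKM and mitochondria-specific members (28 genes) a median of 96.2, a split made by hand after the values were seen.

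Mrps18c, 1 of a trio of proteins related to bacterial S18, led the small subunit at 1066 FPKM, followed by Mrps16 (599) and Mrps21 (435), both with bacterial counterparts. Its paralogues were lower, with Mrps18b at 369.5 and Mrps18a at 91.2 FPKM; the Mrps18a protein sits in the large subunit, as does that of Mrps30 (127 FPKM). The lowest small subunit genes were Mrps25 (15.4), Mrps2 (31.8) and Mrps31 (34.7). In the large subunit, the mitochondria-specific gene Mrpl42 stood highest at 884 FPKM, followed by Mrpl33 (635) and Mrpl20 (473). Mrpl19 (13.1), Mrpl50 (35.9) and Mrpl11 (26.3), the last encoding a protein of the factor-binding base, were the lowest of that subunit. Mrpl12, whose product forms the flexible stalk that recruits translation factors, stood at 225 FPKM, against 38.3 for its stalk base partner Mrpl10. Mrps36, now known as a subunit of the 2-oxoglutarate dehydrogenase complex rather than of the ribosome, had 118 FPKM. Neighbours in this order were often closer than their spread: the coefficient of variation over the 9 libraries had a median of 14.1% among members, against 19.3% among all tested genes.

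**Figure D1:**
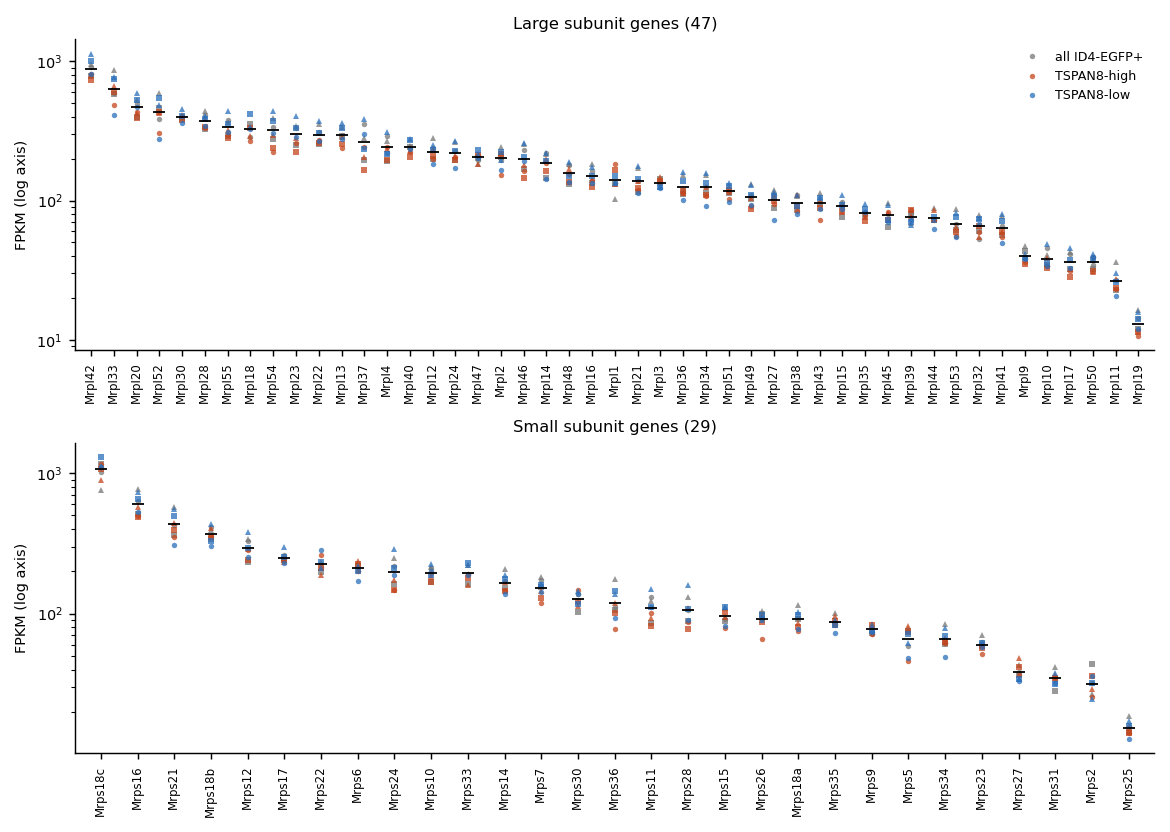
FPKM of the 47 large and 29 small subunit genes on a log axis, ordered by their mean over 9 libraries (black bar), with 1 point per library coloured by population (circle, square and triangle for replicates 1, 2 and 3). Means run from 13.1 FPKM for Mrpl19 to 1066 for Mrps18c, and the points of the 3 populations are interleaved for most genes.

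Other gene sets with matched roles stood higher. The 80 cytosolic ribosomal protein genes had a median of 1097 FPKM and the 82 tested genes of the respiratory chain and ATP synthase a median of 597. Member transcripts were short, with a median annotated length of 1221 bases against 2400 for all tested genes, and their GC content (median 50.5%) was close to the median of 50% for all tested genes. Both of those sets had higher levels and shorter transcripts than the members, but the order did not hold for every pair of sets. The cytosolic set had the higher level and slightly longer transcripts than the respiratory set. Likewise the large subunit, with the higher median level, had a median length of 1226 bases against 1063.5 in the small subunit. Medians were 772.5 bases for the cytosolic and 743.5 for the respiratory set, and 1060 for members with a bacterial counterpart against 1417.5 for mitochondria-specific ones. The low genes Mrpl19 and Mrps25 had 5000 and 6073 bases and the high gene Mrpl42 661, but Mrps16 had 2572. The part of length in the order of levels was not tested. The 7 ribosomal genes that carry other symbols were within the range of the members: Ict1, for the peptide release factor built into the large subunit, stood at 216 to 234 FPKM over the 3 group means, and Dap3, a GTP-binding small subunit protein, at 34.8 to 41.8.

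Summed over all members, TSPAN8-high had 13766 ± 490 FPKM, TSPAN8-low 15709 ± 2149 and all ID4-EGFP+ 15274 ± 1540 (SD, n = 3 each). By library the TSPAN8-high sums were 13543, 13428 and 14327 for replicates 1, 2 and 3, those of TSPAN8-low 13391, 16102 and 17635, and those of all ID4-EGFP+ 15370, 13688 and 16763. TSPAN8-low replicate 1 was thus the lowest of the 9 and TSPAN8-low replicate 3 the highest, and the 3 ranges overlapped. TSPAN8-high libraries lay close together, whereas the other populations spread widely. The 2 subunits moved in parallel: the large subunit sum was 1.59 to 1.78 times the small subunit sum in the 9 libraries, with means of 1.64 ± 0.05 in TSPAN8-high, 1.67 ± 0.07 in TSPAN8-low and 1.70 ± 0.07 in all ID4-EGFP+ (SD, n = 3 each).

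**Figure D2:**
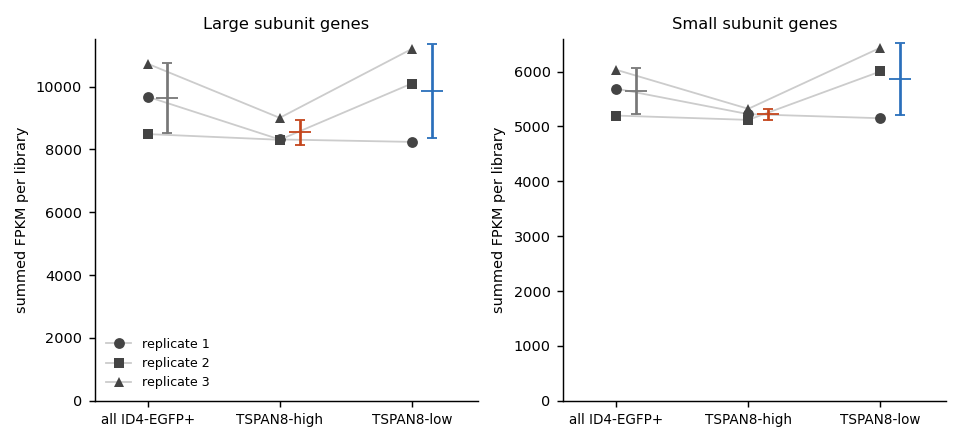
Summed FPKM per library of the large subunit genes (left) and the small subunit genes (right), by population; grey lines join libraries with the same replicate number, and coloured bars give the mean ± SD of 3 libraries. TSPAN8-high sums lie between 8309 and 9007 for the large subunit, inside the range of 8242 to 11202 spanned by TSPAN8-low.

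The first comparison asked how the members differ between strongly and weakly TSPAN8-stained cells. Estimates leaned toward lower values in TSPAN8-high: the median log2 fold change was -0.16 in the large subunit and -0.13 in the small subunit, against 0.05 over all tested genes. In the large subunit 40 of 47 estimates were below 0, in the small subunit 22 of 29, and over all tested genes 4841 of 11142 (43.4%). The 7 ribosomal genes with other symbols leaned less, with 4 estimates below 0 and a median of -0.05. No member passed the threshold in limma, a Benjamini-Hochberg adjusted p under 0.05 over all 11142 genes, where 5.56% of tested genes passed. At an unadjusted p under 0.05, limma had 7 members lower (9.21%, against 8.19% of tested genes) and 0 higher (against 13.8%). With the replicate number as a block, 18 members were lower at that level (23.7%, against 13% of tested genes) and 2 higher (against 21.3%). The 3 values of each fraction did not overlap for 14 members, 11 of them lower and 3 higher in TSPAN8-high; among all tested genes 9.71% were lower and 15.9% higher in this sense.

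The lean was not shared by the 3 replicate numbers. Within replicate 1 the median difference between TSPAN8-high and TSPAN8-low was 0.06 for the large and -0.03 for the small subunit, with 34 of 76 members lower in TSPAN8-high. Within replicate 2 the medians were -0.23 and -0.16, with 63 members lower, and within replicate 3 they were -0.29 and -0.20, with 66 lower. Over all tested genes the medians were 0.03, 0.06 and 0.05 in the same order. The group medians thus rested on replicates 2 and 3, in which the TSPAN8-low sums were also high. Lower in all 3 same-number pairs were 29 members (38.2%, against 22% of tested genes), and higher in all 3 were 5 (6.58%, against 31.4%).

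**Figure D3:**
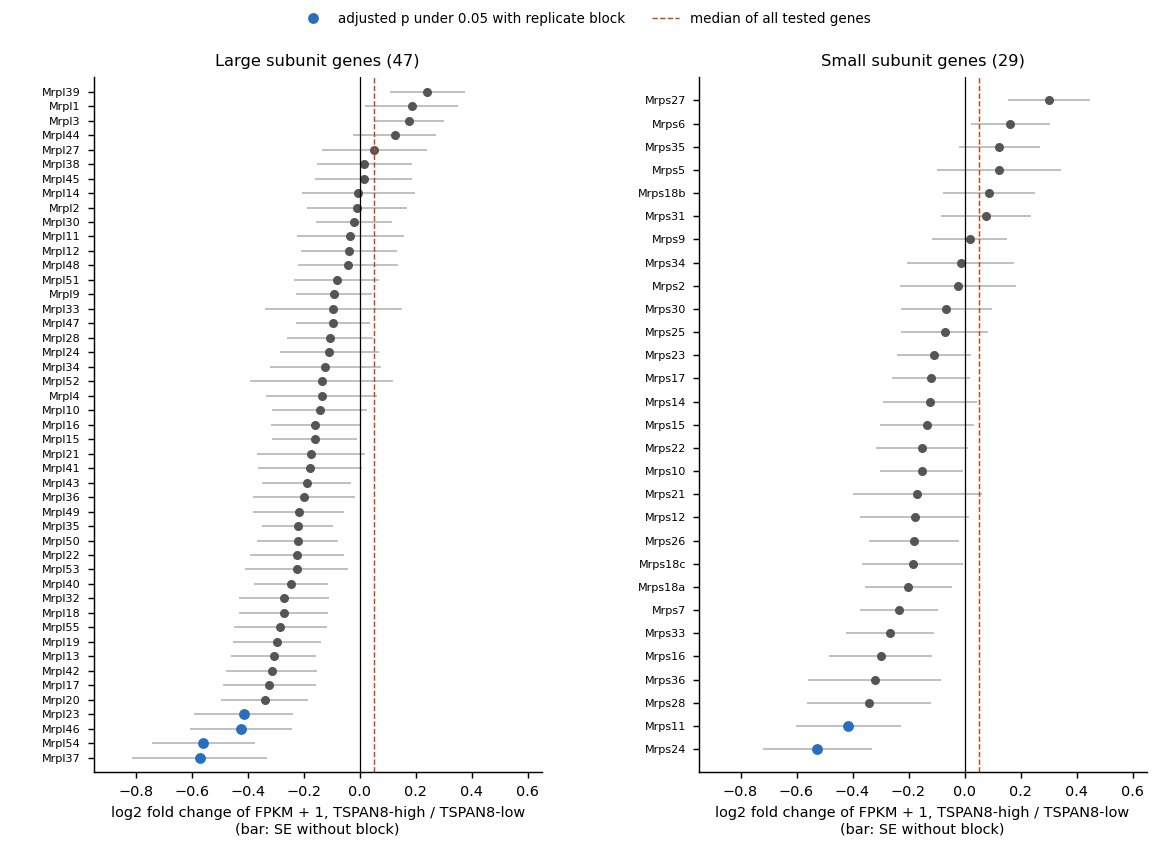
log2 fold change of FPKM + 1 between TSPAN8-high and TSPAN8-low for each large (left) and small (right) subunit gene, with the standard error of the fit without a block; the dashed line is the median of all tested genes (0.05), and blue points passed with the replicate block. Estimates run from -0.57 for Mrpl37 to 0.30 for Mrps27, and the 6 blue points lie at the lower end.

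With the replicate number as a block in the same limma fit, 6 members fell (7.89%) and 0 rose. Among all tested genes 19.1% then passed, 7.34% lower and 11.8% higher, so the share of members called lower was near the background. The 6 were Mrpl54, Mrpl37, Mrpl46 and Mrpl23 of the large subunit and Mrps24 and Mrps11 of the small subunit. Their adjusted p with the block ran from 0.0086 to 0.0451, and without it from 0.103 to 0.224. These calls depended on single libraries: 1 call, that of Mrpl54, was left when replicate 3 of either fraction was dropped. Dropping TSPAN8-high replicate 1 left 2 calls, as did dropping TSPAN8-low replicate 2, and dropping TSPAN8-high replicate 2 left 3. Without TSPAN8-low replicate 1 the count rose to 15. Without replicate 3 of all groups 0 members passed. The share of all tested genes called in each of these reduced fits is not given here, so the counts are not read as particular to the members.

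Mrpl54, which encodes a mitochondria-specific protein of the large subunit, stood at 224, 239 and 295 FPKM in TSPAN8-high replicates 1 to 3, at 307, 375 and 439 in TSPAN8-low and at 338, 277 and 395 in all ID4-EGFP+. All TSPAN8-high values lay below all TSPAN8-low values, and within each number TSPAN8-high was the lowest of the 3 populations. The log2 fold change between the fractions was -0.56 (SE 0.19; limma adjusted p = 0.103, and 0.0086 with the block).

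Mrps24, whose bacterial relative S3 lines the mRNA entry of the small subunit, had FPKM of 147, 148 and 174 in TSPAN8-high, of 188, 211 and 287 in TSPAN8-low and of 218, 163 and 247 in all ID4-EGFP+. The fractions did not overlap, and TSPAN8-low replicate 3 stood above all other libraries. Its fold change was -0.53 (SE 0.19; limma adjusted p = 0.142, and 0.0148 with the block).

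Mrpl37, a mitochondria-specific large subunit gene, had the lowest log2 fold change of all members, -0.57 (SE 0.24; limma adjusted p = 0.189, and 0.0149 with the block). It had FPKM of 242, 166 and 205 in TSPAN8-high, of 299, 236 and 387 in TSPAN8-low and of 355, 194 and 281 in all ID4-EGFP+. Here the fractions overlapped, since TSPAN8-high replicate 1 exceeded TSPAN8-low replicate 2, while within each replicate number TSPAN8-high was the lower of the 2.

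Mrpl46 and Mrps11 encode a mitochondria-specific large subunit protein and the relative of bacterial S11 on the small subunit platform. Mrpl46 had FPKM of 162, 146 and 180 in TSPAN8-high, of 193, 206 and 261 in TSPAN8-low and of 231, 169 and 254 in all ID4-EGFP+ (log2 fold change between the fractions -0.42, SE 0.18; limma adjusted p = 0.198, and 0.0291 with the block). Mrps11 had FPKM of 101, 81.3 and 93.7 in TSPAN8-high, of 112, 111 and 149 in TSPAN8-low and of 131, 85.7 and 124 in all ID4-EGFP+ (-0.41, SE 0.19; 0.224, and 0.0451 with the block). In both genes the fractions did not overlap, and replicate 2 was the lowest library of TSPAN8-high and of all ID4-EGFP+.

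Mrpl23, the relative of bacterial L23 beside the exit of the peptide tunnel, had FPKM of 259, 224 and 282 in TSPAN8-high, of 287, 332 and 408 in TSPAN8-low and of 334, 252 and 341 in all ID4-EGFP+. The highest TSPAN8-high value lay just under the lowest TSPAN8-low value. The log2 fold change was -0.41 (SE 0.18; limma adjusted p = 0.197, and 0.0390 with the block).

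**Figure D4:**
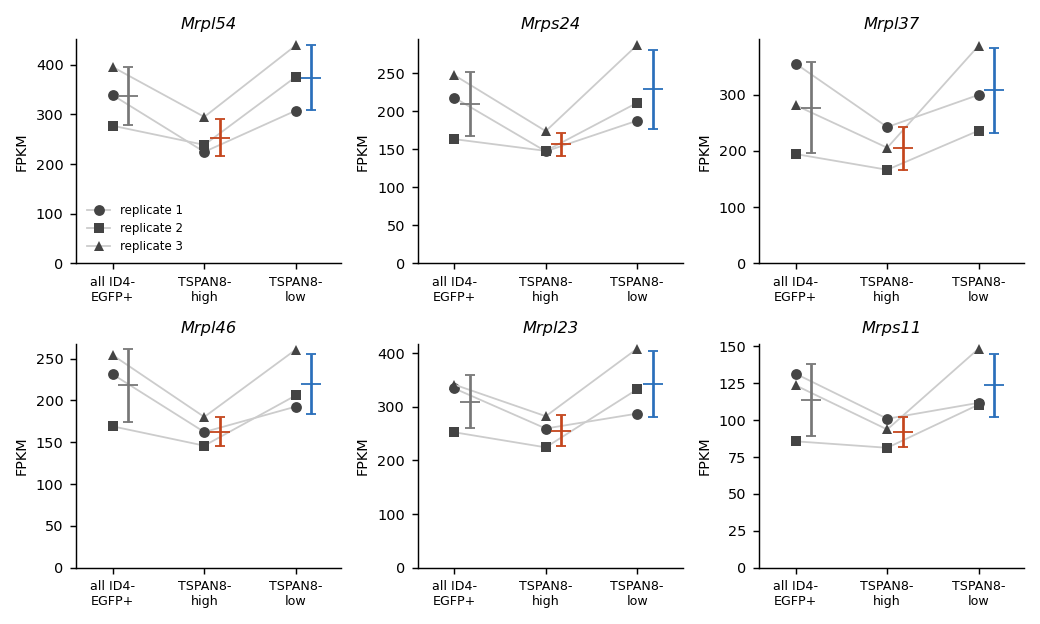
FPKM of the 6 members that passed with the replicate block, by population, with grey lines joining libraries of the same replicate number and coloured bars for the mean ± SD of 3 libraries. In each panel all 3 lines drop from all ID4-EGFP+ to TSPAN8-high and rise from TSPAN8-high to TSPAN8-low.

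The promoter sequences of these genes are shown because 2 of the 6 share one. They come from the RefSeq promoter table of GRCm38.p6, a later build than that of the expression files, matched by symbol, and each is printed 5′ to 3′ on the gene's strand, from 250 bases before the start or from the start of a nearer divergent neighbour up to the base before the start. No window was matched for Mrpl54. Capitals mark matches to the motifs searched on both strands. Factors of the SP1 family bind GGGCGG, and NFY binds CCAAT. ETS factors such as GABP recognise CCGGAAG, and the zinc finger protein YY1 recognises ATGGCGG. The basal promoter word searched was TATAAA, and the E-box of MYC and its relatives was searched as CACGTG. The palindrome of the factor NRF1 is given by name alone. Mrpl46 (minus strand) and Mrps11 (plus strand) start 42 bases apart and point away from each other, and the 41 bases between the starts (chr7:78783090-78783130, read on the plus strand) hold 1 match to GGGCGG. The windows of Mrps24 (chr11:5707702-5707951, minus strand) and Mrpl23 (chr7:142532782-142533031, plus strand) also hold GGGCGG, on the reverse strand in Mrps24, which has TATAAA in reverse as well. That of Mrpl37 (chr4:107066867-107066993, minus strand), bounded by the divergent gene Cyb5rl, holds GGGCGG and CCAAT on both strands.
Mrpl46-Mrps11: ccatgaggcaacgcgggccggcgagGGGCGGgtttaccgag
Mrps24: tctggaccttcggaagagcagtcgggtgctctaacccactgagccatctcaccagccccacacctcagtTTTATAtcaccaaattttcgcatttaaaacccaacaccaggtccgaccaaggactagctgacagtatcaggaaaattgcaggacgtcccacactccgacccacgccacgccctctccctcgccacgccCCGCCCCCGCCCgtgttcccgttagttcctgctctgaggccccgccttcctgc
Mrpl37: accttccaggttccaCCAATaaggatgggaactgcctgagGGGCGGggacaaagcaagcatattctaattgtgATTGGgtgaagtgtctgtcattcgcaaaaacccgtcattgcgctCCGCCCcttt
Mrpl23: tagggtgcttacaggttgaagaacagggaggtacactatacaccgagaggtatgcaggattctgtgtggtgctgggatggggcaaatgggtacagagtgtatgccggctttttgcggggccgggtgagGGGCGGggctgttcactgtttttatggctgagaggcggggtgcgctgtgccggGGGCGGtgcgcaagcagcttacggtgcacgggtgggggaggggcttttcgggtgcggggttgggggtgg

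At the other end of the order, 14 members had estimates above 0. Mrps27, a mitochondria-specific small subunit gene of the pentatricopeptide repeat family, had the largest at 0.30 (SE 0.15; limma adjusted p = 0.249, and 0.0817 with the block). It had FPKM of 36.3, 41.9 and 48.7 in TSPAN8-high, of 32.9, 34.3 and 34.3 in TSPAN8-low and of 38.6, 36.6 and 43.2 in all ID4-EGFP+, so that TSPAN8-low lay below both other populations without overlap. Mrpl39, a mitochondria-specific large subunit gene, had 86.2, 84.9 and 77.5 FPKM in TSPAN8-high against 73.0, 69.7 and 66.9 in TSPAN8-low (0.24, SE 0.13; 0.313, and 0.110 with the block). Mrpl3, whose bacterial relative reaches toward the peptidyl transferase centre, had 136, 139 and 148 against 123, 125 and 125 (0.18, SE 0.12; 0.429, and 0.231 with the block). Those 3 genes were the members in which TSPAN8-high lay wholly above TSPAN8-low.

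Promoters of 2 of them are printed as well. GGGCGG was absent from both, but occurred in windows of other members with estimates above 0 (Mrpl1, Mrps6 and Mrps18b). Matches outside the printed stretch, such as ATGGCGG after the start of Mrps27, are not shown. The window of Mrpl39 (chr16:84735245-84735494, minus strand) holds an NRF1 motif and CCAAT, and that of Mrps27 (chr13:99344679-99344785, plus strand) a CCGGAAG match on the reverse strand.
Mrpl39: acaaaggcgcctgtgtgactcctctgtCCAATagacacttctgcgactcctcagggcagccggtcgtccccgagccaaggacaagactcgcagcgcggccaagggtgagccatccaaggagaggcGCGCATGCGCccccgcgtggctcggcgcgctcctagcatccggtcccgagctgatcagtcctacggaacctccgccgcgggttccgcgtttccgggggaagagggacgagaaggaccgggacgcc
Mrps27: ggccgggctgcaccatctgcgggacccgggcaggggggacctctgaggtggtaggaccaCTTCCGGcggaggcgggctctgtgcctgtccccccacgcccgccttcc

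Promoter windows of 250 bases before to 50 after the start were found for 67 members (73 windows, since some genes have several). CCGGAAG occurred in 32.9% of member windows, against 19% of windows of tested genes and 8.86% of all windows. ATGGCGG occurred in 17.8% (8.44% and 4.05%), the NRF1 motif in 16.4% (10.96% and 4.60%), GGGCGG in 52.1% (63.2% and 35.7%) and CCAAT in 41.1% (39.0% and 37.4%). TATAAA was found in 6.85% of member windows (6.84% and 13.6%) and CACGTG in 9.59% (10.7% and 7.15%). Matches may overlap one another, and a match describes the letters of the window and not a bound site. Of members with a window, 25 (37.3%) had another gene starting within 1000 bases in the opposite direction, against 21.2% of tested genes and 12.2% of all genes in the table.

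Divergent partners did not share the lean. Of the 21 members whose partner was tested, 17 had estimates below 0, whereas 10 of the partners did, with a median partner log2 fold change of 0.06. Over all tested genes 43.4% were below 0. Both estimates were below 0 in 9 cases, in which Mrpl46 and Mrps11, each other's partner, count from both sides. Some pairs went the same way upward, such as Mrps27 (0.30) and Ptcd2 (0.39). The pair of Mrps12, relative of the decoding centre protein S12, and Sars2, the mitochondrial seryl-tRNA synthetase gene, is an example within 1 pathway: their starts lie 147 bases apart. Mrps12 had a log2 fold change of -0.18 (limma adjusted p = 0.629, and 0.393 with the block) and Sars2 one of 0.53 (0.173, and 0.0141 with the block).

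TSPAN8-high and TSPAN8-low were also set beside all ID4-EGFP+; these 2 comparisons share their control libraries, and TSPAN8-high enters the one above too. For TSPAN8-high, the median log2 fold change was -0.15 in the large subunit and -0.11 in the small subunit, against -0.01 over all tested genes, and 64 of 76 estimates were below 0. No member passed in limma without or with the block, where 0.144% and 3.09% of tested genes passed. At an unadjusted p under 0.05 without the block 3 members were lower and 1 higher (against 5.26% and 4.48% of tested genes), and with it 13 and 1 (against 9.5% and 9.17%). Values did not overlap for 7 members lower in TSPAN8-high (9.21%, against 8.34% of tested genes) and 0 higher (against 6.79%). Within replicates 1, 2 and 3 the medians over all members were -0.21, -0.02 and -0.25, so replicate 2 held little of the difference, and 34 members were lower in all 3 pairs (44.7%, against 23.5% of tested genes).

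The lowest estimates of that comparison were -0.41 for Mrpl54 (limma adjusted p = 0.50, and 0.0909 with the block), -0.41 for Mrpl37 and -0.40 for Mrpl46 and Mrps24, whose values are given above. Mrps7, relative of the small subunit head protein S7, had the smallest unadjusted p of the members (0.0205), with 120, 129 and 145 FPKM in TSPAN8-high against 174, 155 and 182 in all ID4-EGFP+ (log2 fold change -0.37, SE 0.14; limma adjusted p = 0.376, and 0.0841 with the block). These ranges did not overlap. Mrps36 had -0.38 (limma adjusted p = 0.682), with 78.1, 101 and 119 FPKM against 112, 106 and 175. The highest estimate was that of Mrpl1, for the protein of the mobile stalk by which spent tRNAs leave the ribosome. It had 183, 165 and 132 FPKM in TSPAN8-high against 134, 131 and 102 (0.38, SE 0.16; limma adjusted p = 0.475, and 0.1004 with the block), and 134, 150 and 134 in TSPAN8-low. Mrpl1 was the highest in TSPAN8-high in replicates 1 and 2, though not in replicate 3, where TSPAN8-low was slightly higher.

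For TSPAN8-low against all ID4-EGFP+, medians were -0.01 in the large and -0.02 in the small subunit, against -0.07 over all tested genes. No member passed in limma without or with the block, where 0% and 0.0449% of tested genes passed; at an unadjusted p under 0.05 the counts were 0 lower and 0 higher (against 6.24% and 1.93% of tested genes), and with the block 0 and 1 (against 13.2% and 5.79%). The replicate numbers disagreed in sign, with medians over all members of -0.23, 0.20 and 0.01 in replicates 1, 2 and 3. Values did not overlap for 2 members lower (10.8% of tested genes) and 4 higher (3.44%). Mrps18c had the highest estimate, 0.30 (SE 0.18; limma adjusted p = 0.649), from 1112, 1309 and 1126 FPKM in TSPAN8-low against 1012, 1153 and 756 in all ID4-EGFP+. TSPAN8-low was higher in each replicate number, yet the ranges overlapped. The lowest were Mrps5 (-0.23, limma adjusted p = 0.779) and Mrps27 (-0.21, 0.687), with SE of 0.22 and 0.15.

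Most members moved together from library to library. Each member's log2(FPKM + 1) was correlated with the mean of all other members over the 9 libraries, which share depth and preparation, so the r are given as a description. The r was over 0.5 for 62 members and below 0 for 7, with a median of 0.82 in the large and 0.69 in the small subunit. The members most like the rest were Mrps16 and Mrpl21 (r = 0.98 for each) and Mrpl53 (0.97). All ID4-EGFP+ replicate 3 and TSPAN8-low replicate 3 had 65 and 66 of 76 members above their 9-library median, whereas all ID4-EGFP+ replicate 2 and TSPAN8-low replicate 1 had 10 each. Of the TSPAN8-high libraries 13, 13 and 28 members were above it. With the group means removed, the median r was 0.84, so this common movement was also present between libraries of 1 population.

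The 7 members that ran against the rest were Mrpl39 (r = -0.76), Mrpl1 (-0.61), Mrps2 (-0.60), Mrps18c (-0.38), Mrpl3 (-0.30), Mrps22 (-0.26) and Mrpl47 (-0.05). Their transcripts had a median length of 2294 bases and a median GC content of 45.8%, against 1162 bases and 51.5% in the other 69. Mrpl39, Mrpl1 and Mrpl3 were also among the few members with estimates above 0 between the fractions. Those of Mrps2 (-0.02), Mrps18c (-0.19), Mrps22 (-0.15) and Mrpl47 (-0.10) were below 0. Since r over the 9 libraries includes differences between populations, a member that rises against the rest tends to a low r. With the group means removed, r was 0.006 for Mrpl3 and stayed below 0 for the rest of these members. Mrps18c, the most abundant member, had its lowest value in all ID4-EGFP+ replicate 3 (756 FPKM), a library in which most members were high. Over the 76 members the fold change between the fractions had Spearman's rho of 0.28 with transcript length, and 0.14 over the 11043 tested genes with a length, as a description across genes that are not independent. Correcting for length and GC content moved the medians to -0.13 and -0.09 for the large and small subunits.

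**Figure D5:**
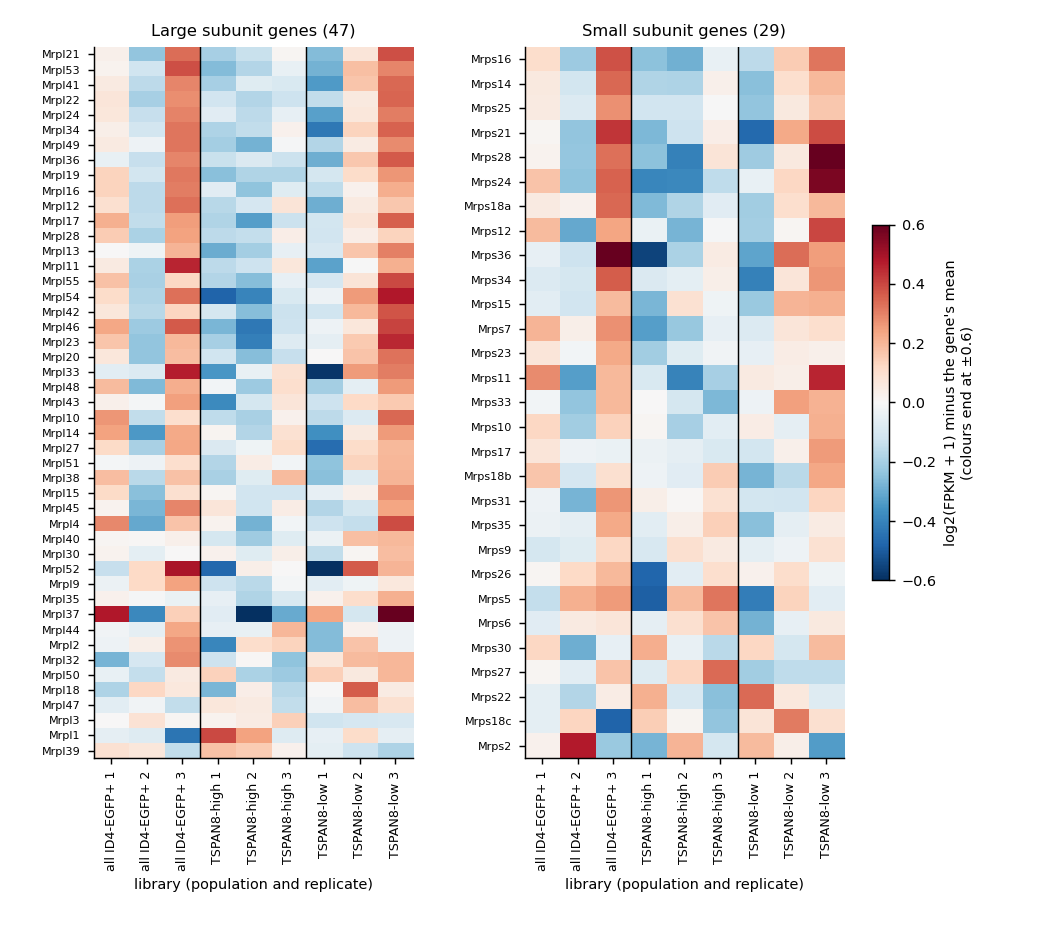
Deviation of log2(FPKM + 1) from each gene's mean over 9 libraries (blue below, red above, colours ending at 0.6), with genes ordered from the highest to the lowest r with the mean of the other members and columns grouped by population. Replicate 3 of all ID4-EGFP+ and of TSPAN8-low is red for most genes, with 65 and 66 of 76 members above their median, and the genes at the bottom run the other way.

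Genes of the same pathway that are not ribosomal subunits were examined as lists. Their counts between TSPAN8-high and TSPAN8-low stand beside the shares of all tested genes given above, which with the block were 11.8% higher and 7.34% lower at the adjusted threshold, and without it 13.8% higher and 8.19% lower at an unadjusted p under 0.05. Of 16 tested mitochondrial aminoacyl-tRNA synthetase genes 0 passed without the block (limma; 3 higher and 0 lower at an unadjusted p under 0.05) and 3 rose with it (18.8% of the list), with a median log2 fold change of 0.17 between TSPAN8-high and TSPAN8-low. They were Sars2 (32.7 ± 8.68 against 22.0 ± 4.32 FPKM), Ears2 (10.9 ± 2.82 against 7.54 ± 1.04) and Tars2 (22.5 ± 5.33 against 16.1 ± 2.24, SD, n = 3 each), which charge tRNAs with serine, glutamate and threonine. At an unadjusted p under 0.05, limma with the block had 6 synthetase genes higher and 3 lower (against 21.3% and 13% of tested genes). Values did not overlap for 1 synthetase gene higher and 3 lower in TSPAN8-high (against 15.9% and 9.71%). Of 13 translation factor genes Gfm1, for elongation factor G1, rose with the block (12.1 ± 4.03 against 8.36 ± 1.37 FPKM, log2 fold change 0.44, limma adjusted p = 0.0427 with the block), and the median was 0.04. Of 26 assembly and ribosomal RNA modification genes 1 rose and 1 fell with the block, with a median of 0.11. The faller was Mrm1, a ribosomal RNA methyltransferase gene, and the riser Ftsj2, another. Of 16 genes for transcription and RNA handling in mitochondria, Tfb2m, a transcription factor of the mitochondrial genome, fell with the block (46.7 ± 6.75 against 67.4 ± 13.4 FPKM) and Fastkd1, an RNA-binding protein gene, rose; the median was 0.04. A count of 1 was 7.69% of the translation factors, 3.85% of the assembly genes and 6.25% of the last list, in each direction below or near the share of all tested genes. Without the block 0 genes of these 3 lists passed in limma, with 1, 2 and 3 at an unadjusted p under 0.05.

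In other lists most estimates between the fractions were below 0, as among the members. The respiratory chain and ATP synthase genes had a median of -0.17, with 68 of 82 estimates below 0. Without the block 0 passed in limma (1 higher and 9 lower at an unadjusted p under 0.05), and with it 2 rose and 8 fell (9.76% of the list, against 7.34% of tested genes). Ndufa1, a complex I subunit gene, fell from 843 ± 75.9 to 583 ± 27.4 FPKM with the block (log2 fold change -0.53; limma adjusted p = 0.0716, and 0.0126 with the block), while Ndufv1, the complex I flavoprotein gene, rose from 230 ± 40.1 to 357 ± 76.3 (0.62; 0.0932, and 0.00347 with the block). Cytosolic ribosomal protein genes had a median of -0.12, with 60 of 80 below 0. Without the block Rps4x rose (0.51, limma adjusted p = 0.0483) and Rps27l, a p53-induced relative of Rps27, fell (-0.73, 0.0187), and with it 4 rose and 2 fell. Of 25 mitochondrial import genes 0 passed in limma without the block (1 higher and 1 lower at an unadjusted p under 0.05) and 2 fell with it, Tomm20, for the outer membrane receptor, and Timm8a1. These were 8.0% of the list, near the 7.34% of tested genes, and the median was -0.11. Within replicate 1 the median difference was 0.02 for cytosolic ribosomal proteins and 0.00049 for the respiratory chain, against 0.03 for all members.

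Known regulators of nuclear genes for mitochondrial proteins showed no call in limma between the fractions (0 of 8 tested, without or with the block). At an unadjusted p under 0.05, limma had 0 without the block, and 1 higher and 2 lower with it. Of the 8 estimates 6 were below 0, with a median of -0.07. Nrf1, which encodes the factor of the NRF1 motif, had 22.9 ± 3.29 FPKM in the high and 19.2 ± 1.35 in the low fraction (log2 fold change 0.24, adjusted p = 0.366). Gabpa, the DNA-binding subunit of the ETS factor GABP, had 33.8 ± 0.81 and 34.9 ± 4.35 FPKM (-0.04, 0.899), and Yy1 had 6.51 ± 1.60 and 8.63 ± 2.22 (-0.36, 0.312; SD, n = 3 each). The coactivator genes Ppargc1a and Ppargc1b, the receptor gene Esrra and Myc were below the filter, at group means of at most 0.44 FPKM.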

How the data were processed

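Transcripts of sorted mouse spermatogonia were measured in 9 libraries, 3 per population. The SMART-Seq v4 kit, which does not mark strand, and Nextera XT were used before paired-end sequencing, per the labels' protocols. Reads were handled with TopHat2 2.0.12, Bowtie2 2.2.3.0, FastQC and Cufflinks on mm9, per the submitters' processing notes. Neither the Cufflinks version nor the annotation is given in the sources used here. Deposited by the authors were Cufflinks FPKM values, which were tested, and a table of normalized values (signal), used only as an alternative. Straight lines fitted to their log10 against log10 FPKM had slopes of 0.973 to 1.02 by library, and how closely the values followed the lines was not measured. A further deposited table was not used here. Reads shared with near-identical copies or pseudogenes, or with an antisense gene, can be split by Cufflinks in ways the table does not show.

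Symbols on more than 1 entry (262 symbols, 768 entries) were left out, and 27 entries that show a date in place of a symbol were kept. Tested were the 11142 genes that reached an FPKM of 1 in 3 or more libraries. One limma 3.58.1 fit on log2(FPKM + 1) (R 4.3.3; two-sided, eBayes with a trend) covered all 9 libraries, with Benjamini-Hochberg adjustment over all tested genes and a threshold of 0.05; fold changes on this scale are understated for low genes. It was tested on simulated data. Named members were the 3 highest and lowest of each subunit by level and by fold change per comparison, those past the threshold, Mrpl12, Mrps36 and the Mrps18 paralogues; other members and genes called with the block were chosen after their values were seen. The members and all gene lists were chosen with earlier results of these data known.

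Libraries of the 3 populations share replicate numbers in their titles. Deviations from the group means correlated across genes in all 9 same-number pairs (r from 0.26 to 0.48, against -0.46 to 0.28 in the 18 other pairs), so the numbers were taken to pair the samples, and the fit with the number as a block is given beside each result it changes. Transcript length and GC content came from GENCODE M21, promoters from RefSeq (GRCm38.p6). Alternatives changed the pseudocount (0.1), the filter (none, or 5 FPKM), the scaling (the authors' normalized values, a common median, quantiles), a length and GC correction, the block, the subunit assigned to Mrps18a and Mrps30, and left out each library or replicate number. Python 3.11.15 and matplotlib 3.10.9 made tables and plots.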

Additional observations from a re-analysis of the deposited data

How the results depend on the processing

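Between TSPAN8-high and TSPAN8-low, 0 members passed in limma under each setting without the replicate block, except with a length and GC correction, where 2 did (Mrpl54 and Mrps24). With the replicate block 6 passed, 9 with the length and GC correction added, 6 with the authors' normalized values or quantile normalization and 11 with a common median. Dropping 1 library from the blocked fit gave 1 to 15 calls (6, 8 and 4 for replicates 1, 2 and 3 of all ID4-EGFP+), and dropping a whole replicate number gave 9, 3 and 0 for numbers 1, 2 and 3. All of these were lower in TSPAN8-high. For TSPAN8-high against all ID4-EGFP+, 0 members passed, except with the block when all ID4-EGFP+ replicate 2 (4) or TSPAN8-low replicate 1 (3) was dropped; for TSPAN8-low against all ID4-EGFP+ 0 passed under every setting run. Settings that combine the block with another choice, and dropping a replicate number, were added after seeing the data. Apart from the main and the blocked fit, the share of all tested genes called under each setting is not given here. Changes in these counts therefore cannot be told apart from changes in calls over all genes.

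The median log2 fold change between the fractions stayed below 0 under every setting, from -0.28 to -0.05 in the large subunit and from -0.23 to -0.06 in the small subunit. A common median, which moved the median of all tested genes from 0.05 to -0.03, gave -0.26 and -0.23. Medians of TSPAN8-low against all ID4-EGFP+ took both signs, from -0.14 to 0.13. Among the 41 named results, 9 took the other sign under some setting, and 0 of them had passed the threshold. Between the fractions, Mrps18b became -0.0108 with a common median, blocked or not, and -0.0323 with the block when TSPAN8-low replicate 1 was dropped, with a range of -0.0166 to 0.238 when single libraries were dropped without it. Mrpl12 became 0.0293 with quantile normalization, blocked or not, 0.0198 without replicate 2 of all groups and 0.0715 with the block and without TSPAN8-low replicate 2, and ranged from -0.173 to 0.0550 when single libraries were dropped. In TSPAN8-low against all ID4-EGFP+, Mrps7 became 0.0169 with the length and GC correction, blocked or not, and Mrps33 -4.99e-05 without replicate 2 of all groups. Dropping single libraries moved Mrpl52 from -0.359 to 0.129 and Mrpl11 from -0.293 to 0.0306 there. In TSPAN8-high against all ID4-EGFP+, Mrps30 became -0.00913 without replicate 2 of all groups and ranged from -0.0325 to 0.175 with single libraries dropped, Mrps27 from -0.0142 to 0.193 and Mrps18c from -0.0592 to 0.245. The cause was not tested. A population with 1 library dropped had 2 samples and shared the spread of the fit. With 3 libraries a population and unknown depth, small differences between members could not be resolved.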
